A study of Homo sapiens with 4 samples.

Results

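The genes described here are the non-coding host genes of small nucleolar RNAs (snoRNAs) in the human embryonic stem cell line H9, which grows in the primed pluripotent state. They were taken by name: every gene called SNHG followed by a number, together with GAS5, ZFAS1, DANCR and EPB41L4A-AS1. The rule found 30 of the 16174 genes in the deposited table, and 1 of these, SNHG26, is the gene the guides were aimed at and serves only as a reference. Averaged over the 4 libraries, each of the 29 other hosts reached the minimum of 1 TPM and was tested. TPM, the authors' unit, corrects reads for gene length and scales every library to the same sum.

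All 4 libraries came from H9 cells with a doxycycline-inducible dCas9-BFP-KRAB, a Cas9 that does not cut and carries the KRAB repressor domain and a blue fluorescent protein, inserted with a transposase, selected with puromycin and kept on doxycycline. The SNHG26 arm carried 4 pooled guides against SNHG26, and the control arm carried non-targeting guides. Each arm was read once after 2 days and once after 3 days of doxycycline, so the 2 libraries of an arm differ in day, and the mean ± SD given below has n = 2. Poly(A) RNA was read as PCR-amplified cDNA on a nanopore sequencer. Nothing in the labels says that the libraries came from separate cultures or clones, so p-values measure only the spread between these libraries.

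A snoRNA guides chemical modification or processing of ribosomal and other RNAs, and in human cells most snoRNAs are cut out of the introns of a host gene after splicing. Some hosts encode ribosomal proteins or translation factors, while the hosts described here have spliced exons with no long conserved reading frame. Many hosts of both kinds begin with a terminal oligopyrimidine (TOP) tract, a C followed by further pyrimidines at the first transcribed base, which ties translation of such RNAs to growth signals. Spliced non-coding host RNAs that reach ribosomes are known targets of nonsense-mediated decay, so their steady level reflects both synthesis and decay. Pluripotent stem cells grow fast and make many ribosomes.

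The starts of the hosts were searched for such a tract. RefSeq (GRCh38.p14) gave a start for 25 of the 29 hosts, 26 starts in all. The motif searched was a C followed by at least 4 bases that are each C or T, on the transcribed strand only. It was counted as at the start when the first 5 bases from the start matched it, also where the run began upstream. In SNHG18 and SNHG12 the run began upstream, at position -1 relative to the start. The motif stood at the start in 7 of 26 host starts (26.9%), in 15 of 40 starts of a fixed list of protein-coding snoRNA hosts (37.5%) and in 4.07% of all 35116 RefSeq starts. When it could begin within 10 bases on either side of the start, the shares were 61.5%, 60.0% and 33.5%. A match describes the letters only, and no match says only that they are not in this window. The windows below run from 20 bases before the start to 30 bases from it, 5′ to 3′, with the longest matching tract in capitals. The first 4 are abundant hosts with the tract at the start, the next 3 have it nearby, and the last 3 are well-known hosts without a match.
SNHG19: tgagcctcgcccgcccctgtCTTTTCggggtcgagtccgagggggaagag
SNHG5: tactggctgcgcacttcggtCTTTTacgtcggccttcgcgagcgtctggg
ZFAS1: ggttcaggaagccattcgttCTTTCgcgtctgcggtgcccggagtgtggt
SNHG32: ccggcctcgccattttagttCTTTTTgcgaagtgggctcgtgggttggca
DANCR: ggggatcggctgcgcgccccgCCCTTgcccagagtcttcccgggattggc
SNHG8: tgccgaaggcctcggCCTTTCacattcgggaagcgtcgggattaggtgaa
SNHG29: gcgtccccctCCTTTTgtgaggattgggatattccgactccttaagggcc
GAS5: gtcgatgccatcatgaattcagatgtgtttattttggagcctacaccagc
SNHG1: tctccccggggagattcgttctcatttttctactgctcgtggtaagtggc
EPB41L4A-AS1: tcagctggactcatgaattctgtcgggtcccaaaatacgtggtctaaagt

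In the same order the windows are chr16:2155329-2155378 (minus strand), chr6:85678704-85678753 (minus), chr20:49278622-49278671 (plus), chr6:31834896-31834945 (plus), chr4:52712374-52712423 (plus), chr4:118278742-118278791 (plus), chr17:16438967-16439016 (plus), chr1:173869016-173869065 (minus), chr11:62855856-62855905 (minus) and chr5:112160506-112160555 (plus). The tract of DANCR begins 1 base after the RefSeq start, and that of SNHG8 begins 5 bases before it. The 5′ end that the deposited table lists lies 0 bases from the RefSeq start for EPB41L4A-AS1 and 105 for GAS5. The distance is 210 bases for SNHG5, 314 for SNHG19, 559 for SNHG1 and 1588 for ZFAS1. It is 12822 for SNHG32 and up to 154975 for SNHG14. The RefSeq starts of GAS5, SNHG14, SNHG3 and SNHG4 lie outside their listed genes, for SNHG3 by 37 bases and for SNHG4 by 1. Whether the windows of GAS5 and SNHG1 hold the start used in these cells was not tested. The 7 hosts with the tract at the start had a median level of 134.6 TPM, with a range from 1.86 TPM (SNHG4) to 990.9 TPM (SNHG19). The 18 others with a RefSeq start had a median of 31.7 TPM, from 1.95 to 1662 TPM. The range of the 7 hosts lies almost fully within that of the 18 others, which reaches higher.

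The libraries were shallow, with at most 947338 to 1220265 reads when every read is placed on the full listed gene. The cells carried the stem-cell markers in all 4 libraries: 11 of 12 fixed markers were listed and all 11 had a value in each library, with a summed level of 1730 to 1949 TPM. The sum was uneven: POU5F1 averaged 1126 TPM, NANOG 27.9 TPM and LIN28B 0.93 TPM. Of the markers of other lineages, TUBB3 stood at 41.5 to 56.2 TPM. The 2 collagen genes of the fibroblast list summed to 7.95 to 11.9 TPM. The listed mesendoderm and trophectoderm or amnion markers stayed at or under 1.98 TPM, and FOXA2, of the endoderm list, was listed at 0. Each of these lists of other lineages held 4 markers, and most were not fully listed. The table held 2 each for fibroblast and mesendoderm. It held 1 each for endoderm, neuroectoderm and trophectoderm or amnion. Why the others were not listed is not known, so these lists were read only in part. SNHG26 itself was low everywhere, at 0 and 0.933 TPM with its guides and at 2.98 and 4.03 TPM with the control guides, and the exact two-sided permutation p of 0.333 is the smallest that 2 libraries against 2 allow.

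Per length, the snoRNA hosts were among the highest non-coding RNAs of these cells. Summed over the 29 hosts, the level was 7140 TPM (day 2) and 7965 TPM (day 3) with the SNHG26 guides, and 7861 and 6778 TPM with the control guides. That was 34.6% and 35.2% of the TPM of all listed lncRNA genes in the SNHG26 arm, and 35.9% and 28.6% in the control arm, from 29 of 1577 such genes. Of the 20 lncRNA genes with the highest mean, 10 were hosts. The median host stood at 67.9 TPM, against 3.27 TPM for the 581 other lncRNA genes tested. The listed spans of the hosts, introns included, run from 988 to 441754 bases, and the length by which each host's reads were divided is not known, so the order of the hosts holds for TPM only. Within the family the 5 highest hosts took from 64.2% to 69.8% of the summed level in each library.

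**Figure D1:**
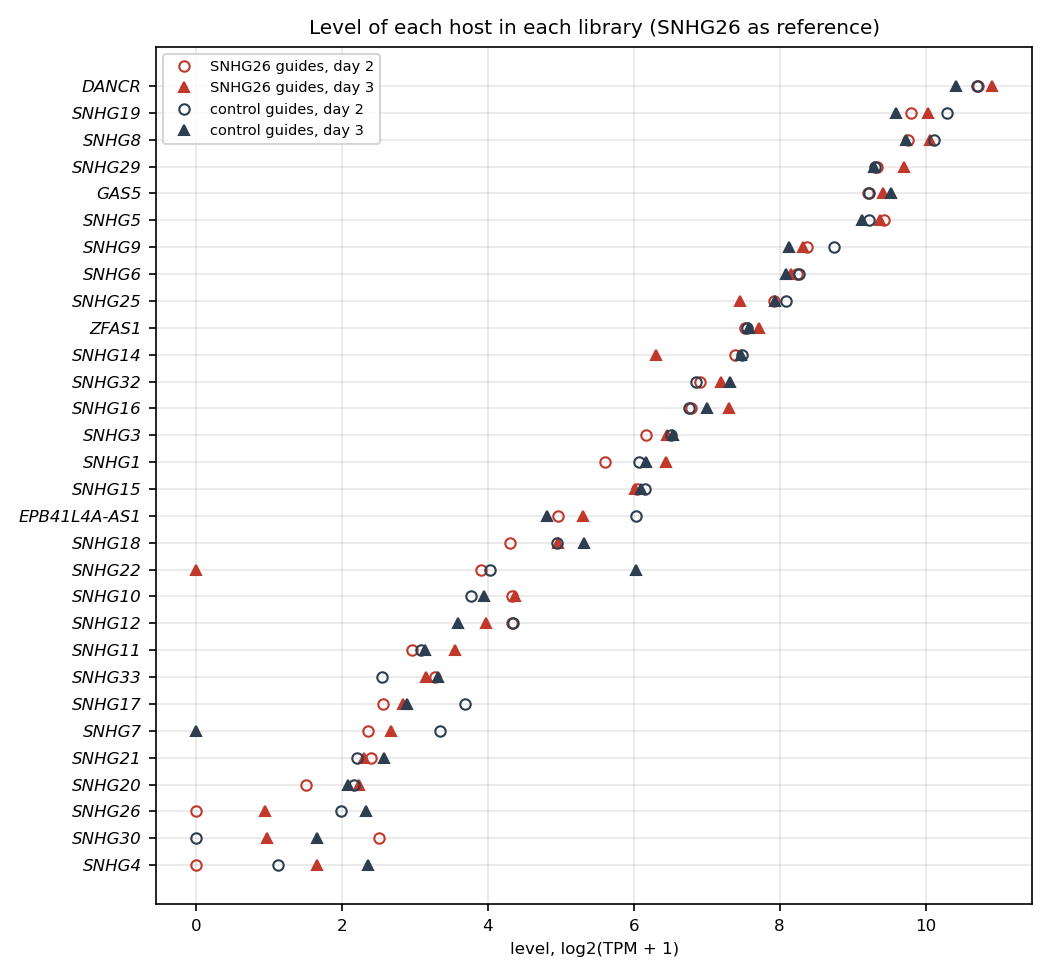
Level of each host on the log2(TPM + 1) scale (x axis) in each of the 4 libraries, with hosts ordered by their mean and SNHG26 shown as reference. DANCR lies highest, from 1368 to 1927 TPM, and SNHG22, SNHG7, SNHG30 and SNHG4 each have 1 library at 0.

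The order of the hosts was alike in all 4 libraries, with Spearman correlations over the 29 hosts from 0.949 to 0.983 between libraries, given as a description since hosts share the library and its depth. Of the 28 pairs of neighbours in the order of mean level, 22 had overlapping ranges over the 4 libraries. The 6 steps without overlap lay below DANCR, SNHG8, SNHG5, ZFAS1, SNHG16 and SNHG12. Hosts that are not neighbours can still overlap across such a step: SNHG29 reached 834.9 TPM, above the lowest SNHG19 library at 775.1 TPM.

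DANCR, named for its part in blocking differentiation of progenitor cells and the host of SNORA26, was the highest of the family in TPM. In TPM times listed span, SNHG14, SNHG29 and SNHG5 each exceeded it in all 4 libraries. DANCR stood at 1689 and 1927 TPM (day 2 and day 3) with the SNHG26 guides and at 1664 and 1368 TPM with the control guides. Both SNHG26-guide libraries were above both control libraries, by a narrow margin on day 2. The means were 1808 ± 168 and 1516 ± 209.8 TPM, and the log2 change was 0.26 (SE 0.15, 95% interval -0.16 to 0.68), with a limma adjusted p of 0.935.

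SNHG19 and SNHG8, the hosts of SNORD60 and SNORA24, came next. SNHG19 was listed at 887.1 and 1045 TPM with the SNHG26 guides and at 1257 and 775.1 TPM with the control guides. SNHG8 was listed at 867.8 and 1071 TPM against 1110 and 846.7 TPM. In both genes the arms overlapped: the SNHG26 arm was higher on day 3 and lower on day 2, and the mean log2 change was -0.04 (SE 0.28) for SNHG19 and -0.0080 (SE 0.20) for SNHG8.

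SNHG29, GAS5 and SNHG5 followed. SNHG29 stood at 645.6 and 834.9 TPM with the SNHG26 guides and at 631.8 and 625.1 TPM with the control guides. The 1 high library was day 3 of the SNHG26 arm, and the arms did not overlap. GAS5, which carries several box C/D snoRNAs in its introns and was named for its build-up in growth-arrested cells, stood at 592.4 and 679.5 TPM against 598.7 and 737.7 TPM. Its 2 arms overlapped and day 3 was the higher day in both. SNHG5, the host of the SNORD50 snoRNAs, stood at 688.2 and 661.4 TPM against 596.4 and 557.1 TPM. It was the most even of the hosts that were higher in the SNHG26 arm, with log2 changes of 0.21 on day 2 and 0.25 on day 3 (mean 0.23, SE 0.13, 95% interval -0.13 to 0.58, limma adjusted p 0.935).

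Next in level, SNHG9, the host of SNORA78, had 332.0 and 317.3 TPM with the SNHG26 guides and 428.9 and 278.7 TPM with the control guides. On its listed span of 988 bases these values allow at most 45.0, 48.0, 52.8 and 41.0 reads. The arms overlapped, and day 2 was the higher day in both. SNHG9 overlaps RPS2, a ribosomal protein gene on the opposite strand with a mean of 1660 TPM, by 316 bases. Strand use in counting is not given in the sources used here, so reads in that stretch are uncertain. SNHG6, the host of SNORD87, had 299.4 and 283.7 TPM against 305.9 and 271.2 TPM. It was 1 of the steadiest hosts, with 1.13-fold between its highest and lowest library.

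SNHG25, the host of SNORD104, had 241.1 and 174.3 TPM with the SNHG26 guides and 271.7 and 242.9 TPM with the control guides. Both SNHG26-guide libraries were the lower ones, and the log2 change was -0.32 (SE 0.23, limma adjusted p 0.935), from -0.56 to -0.092 with each library left out. ZFAS1, transcribed from the ZNFX1 promoter region in the opposite direction and the host of the SNORD12 snoRNAs, had 183.2 and 209.2 TPM against 186.2 and 189.5 TPM. Its libraries lay within 1.14-fold of each other, and its log2 change was 0.06 (SE 0.17) and turned to -0.0018 under quantile normalization.

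SNHG14, the long imprinted transcript of the Prader-Willi region that carries the SNORD116 and SNORD115 clusters, was the host with the largest gap among those with over 100 TPM. It stood at 165.9 and 78.0 TPM with the SNHG26 guides and at 178.6 and 176.5 TPM with the control guides. Of the 4 libraries 3 lay close together and day 3 of the SNHG26 arm lay far below them, so the log2 change was -0.11 on day 2 and -1.17 on day 3. The mean was -0.64 (SE 0.41, 95% interval -1.77 to 0.50), with a limma adjusted p of 0.935, and without that library the change was -0.097. The listed gene spans 441754 bases, and the reads behind its TPM are not known. SNRPN, which the listed gene overlaps by 141 bases on the same strand, stood at 153.7 and 176.1 TPM against 152.4 and 162.1 TPM, with no low library.

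SNHG32 and SNHG16, which carry snoRNAs of the SNORD48 and SNORD1 families, were higher on day 3 in both arms. SNHG32 had 119.0 and 146.1 TPM with the SNHG26 guides and 115.1 and 158.3 TPM with the control guides. SNHG16 had 108.9 and 157.5 TPM against 106.7 and 127.4 TPM. Their log2 changes from day 2 to day 3 were 0.38 and 0.39, each with a limma adjusted p of 0.760, and the 2 arms overlapped in both genes.

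SNHG3, the host of the SNORA73 snoRNAs, had 70.8 and 87.0 TPM with the SNHG26 guides and 90.4 and 92.3 TPM with the control guides. All of its listed span lies within RCC1 on the same strand, which had a mean of 10.2 TPM. SNHG1, which carries a row of box C/D snoRNAs, had 47.9 and 85.9 TPM against 66.4 and 71.2 TPM. SNHG1 had its lowest and its highest library in the SNHG26 arm, whereas SNHG3 was lower there on both days.

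SNHG15, the host of SNORA9, had the narrowest range of all. It stood at 65.3 and 63.8 TPM with the SNHG26 guides and at 69.9 and 67.4 TPM with the control guides. Its highest library was 1.10-fold above its lowest. The listed span allows at most 35.3, 38.5, 34.3 and 39.6 reads, so this narrow range is not taken as a trait of the gene. The log2 change of -0.09 (SE 0.20, 95% interval -0.65 to 0.47) was not past the threshold although the arms did not overlap. EPB41L4A-AS1, the host of SNORA13 that lies antisense to EPB41L4A, had 30.1 and 38.7 TPM against 64.3 and 27.0 TPM. The day 2 control library was high and the other 3 were close together, and its log2 change of -0.29 became 0.33 without that library. The listed span of EPB41L4A-AS1 allows at most 17.7, 25.4, 34.4 and 17.3 reads.

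SNHG18, the host of SNORD123, had 18.7 and 30.2 TPM with the SNHG26 guides and 29.8 and 38.7 TPM with the control guides, lower in the SNHG26 arm on both days with overlapping arms. SNHG22 had 14.0 and 0 TPM against 15.4 and 64.3 TPM. These are whole multiples of a single read on a span of 522 bases, namely 1, 0, 1 and 5 reads, so the fitted log2 change of -3.08 (SE 1.55) rests on 7 reads in all and no fold is given.

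The other 10 hosts had means from 1.86 to 16.5 TPM. SNHG10, the host of SCARNA13, was listed at 19.1 and 19.8 TPM with the SNHG26 guides and at 12.6 and 14.5 TPM with the control guides, higher on both days (log2 change 0.49, SE 0.27, limma adjusted p 0.935). SNHG17 was lower on both days (-0.59, SE 0.42). SNHG12, SNHG11, SNHG33, SNHG21 and SNHG20 had changes between -0.25 and 0.28 with overlapping arms. SNHG7, SNHG30 and SNHG4 each had a library at 0 and at most 9.17 TPM in any other.

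Across the family, no host passed the threshold with the SNHG26 guides. Limma called 0 of 29 hosts at an adjusted p of 0.05, and 0 hosts had an unadjusted p under 0.05. The background was 0% of 8274 genes called at the adjusted threshold and 4.07% at the unadjusted one. The smallest adjusted p of a host was 0.935. The median log2 change of the hosts was -0.036, with 12 of 29 above 0, against 0.041 and 53.3% for all genes tested. The SE of a host's change ran from 0.13 to 1.55 with a median of 0.28, so these data bound changes of single hosts only loosely and do not show that levels were equal.

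The arms did not overlap in 10 hosts. DANCR, SNHG29, SNHG5 and SNHG10 were higher in both SNHG26-guide libraries (13.8% of hosts, against 16.1% of all genes tested). SNHG25, SNHG14, SNHG3, SNHG15, SNHG22 and SNHG17 were lower in both (20.7%, against 13.2%). Neither share is far from the background. SNHG22 is counted by its TPM only: on day 2 each arm held 1 read, so the arms tie there in reads. On day 2 the median change was -0.11, with 9 of 29 hosts above 0, and on day 3 it was 0.14, with 16 above 0. The same medians over all genes tested were 0 and 0.034. Of the 29 hosts, 14 changed in the same direction on both days.

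**Figure D2:**
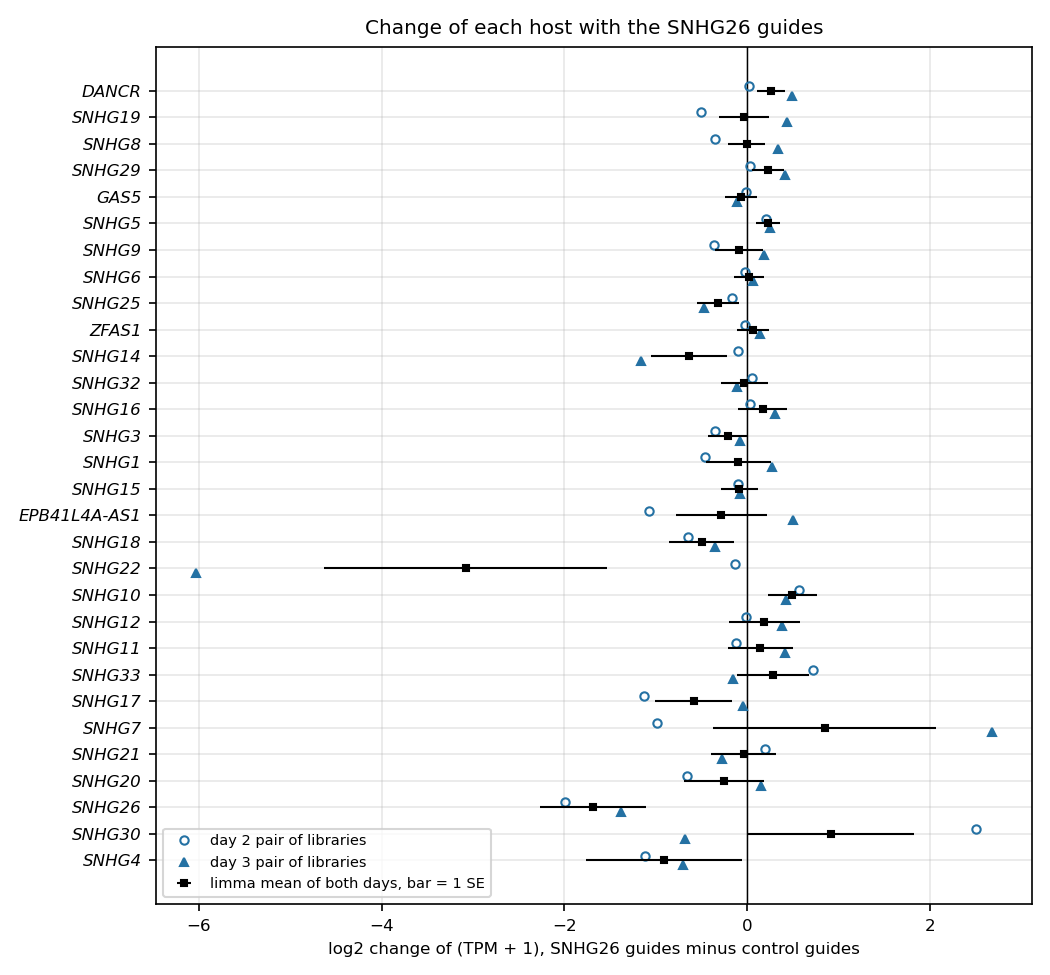
Log2 change of TPM + 1 with the SNHG26 guides (x axis) for each host, ordered by mean level, from the day 2 and the day 3 pair of libraries and as the limma mean with 1 SE. The means of most hosts lie near 0, and the day 3 value of SNHG22 at -6.03 rests on 0 against 5 reads.

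Between day 2 and day 3 the hosts did not move together either. Limma called 0 of 29 hosts at an adjusted p of 0.05, with a background of 0.0363%, and 0 hosts at an unadjusted p under 0.05, with a background of 6.61%. GAS5, ZFAS1, SNHG32, SNHG16, SNHG1, SNHG18, SNHG11 and SNHG4 were higher in both day 3 libraries (27.6% of hosts, against 17.1% of all genes tested). SNHG9, SNHG6 and SNHG12 were lower in both (10.3%, against 18.4%). GAS5 had a log2 change of 0.20 with the SNHG26 guides and 0.30 with the control guides, and the limma adjusted p was 0.760. The median over the hosts was 0.065, with 15 of 29 above 0, against 0.0071 and 50.7% for all genes tested. By arm the host median was 0.20 in the SNHG26 arm and -0.015 in the control arm. The same medians over all genes tested were 2.4e-05 and -0.016.

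The difference between those arms ran through several of the most abundant hosts. DANCR, SNHG19 and SNHG8 were higher on day 3 than on day 2 in the SNHG26 arm and lower on day 3 in the control arm. Fitted as a single crossed term, so that guide and day effects count as spread, the difference between the days in the guide change was 0.93 (SE 0.34) on the log2 scale for SNHG19, 0.69 (SE 0.25) for SNHG8 and 0.47 (SE 0.34) for DANCR. SNHG19 and SNHG8 were the 2 hosts with an unadjusted p under 0.05 (0.0482 and 0.0480, limma), against a background of 3.52%. Under other processing settings the number of such hosts ran from 0 to 3. No host passed after adjustment, with a smallest adjusted p of 0.961 and a background of 0.0967%. GAS5 and SNHG5 had -0.10 and 0.041.

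Over all hosts 20 of 29 (69.0%) had a positive difference between the days, with a median of 0.28, against 54.9% and 0.099 over all genes tested. Among the 13 hosts with a mean of at least 100 TPM, 9 (69.2%) had a positive difference between the days, with a median of 0.17. Among all 764 genes at that level the share was 67.4% and the median 0.15. The control library of day 3 had the smallest summed host level, 6778 TPM, and its part in the difference was not tested.

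**Figure D3:**
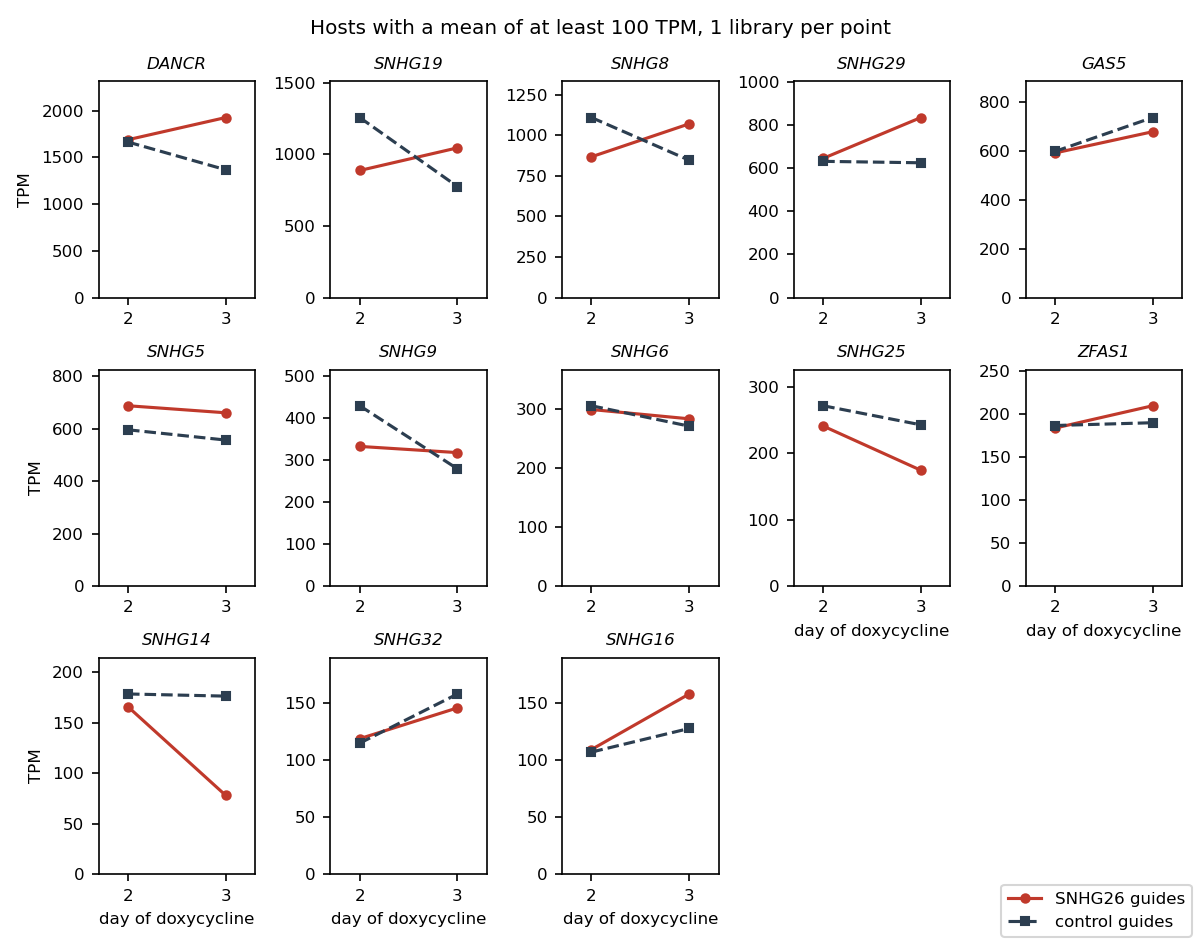
TPM (y axis, from 0) on day 2 and day 3 of doxycycline (x axis) in each guide arm for the 13 hosts with a mean of at least 100 TPM, 1 library per point. SNHG19, SNHG8 and DANCR are higher on day 3 in the SNHG26 arm and lower on day 3 in the control arm. The lines of the arms cross in SNHG19 and SNHG8. GAS5 and SNHG32 are higher on day 3 in both arms without passing the test, and SNHG14 is low in 1 library.

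The spread over the 4 libraries was compared with that of other genes. The SD of log2(TPM + 1) had a median of 0.28 over the hosts and 0.46 over all genes tested. With a mean of at least 100 TPM it was 0.20 in the 13 hosts and 0.20 in all 764 genes, and the other hosts were not compared at matched level. Of the 29 hosts, 12 stayed within 1.5-fold from the lowest to the highest library. Of the rest, 9 reached 2-fold or more or had a library at 0: SNHG14, EPB41L4A-AS1, SNHG18, SNHG22, SNHG17, SNHG7, SNHG20, SNHG30 and SNHG4.

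**Figure D4:**
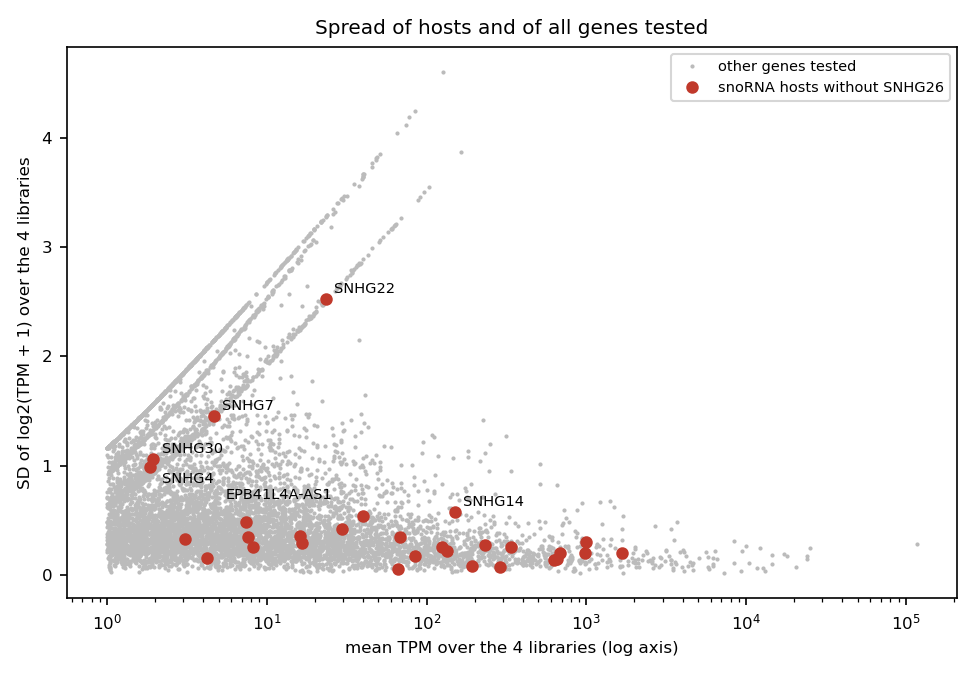
SD of log2(TPM + 1) over the 4 libraries (y axis) against the mean TPM (x axis, log scale) for all genes tested, with the 29 hosts in red. Hosts with a mean of at least 100 TPM have a median SD of 0.20, and SNHG22 and SNHG7, each with 1 library at 0, lie highest.

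Genes that work on snoRNAs and on host RNAs were set beside the hosts, from lists chosen by function. All 8 core proteins of snoRNA particles were tested and none passed. NOP10, of the H/ACA particle, stood at 1570 and 1735 TPM with the SNHG26 guides and at 1617 and 1167 TPM with the control guides. NOP56, of the C/D particle, stood at 154.5 and 147.8 TPM against 187.3 and 84.3 TPM. The mean change was above 0 in 8 of 8, with a median of 0.24, against 53.3% and 0.041 over all genes tested. The medians of the 8 were -0.017 on day 2 and 0.56 on day 3, against 0 and 0.034 over all genes tested. On day 2, 4 of the 8 were above 0, and on day 3, 8 were, against 3818 and 4273 of all 8274 genes tested. The 8 were not compared with genes at matched level. As in DANCR and SNHG19, the day 3 control library was the lowest in each of the 8 except NOP58, so the count above 0 leans on that library.

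The protein-coding snoRNA hosts, such as the ribosomal protein genes RPS20, RPS13 and RPS12, had a median change of 0.11, with 29 of 39 above 0 and none past the adjusted or the unadjusted threshold. All 764 genes averaging 100 TPM or more had a median change of 0.10. Assembly factors of snoRNA particles (7 tested, median -0.19), nonsense-mediated decay factors (10 tested, median 0.057) and regulators of TOP mRNAs (8 tested, median -0.092) had none past either threshold in the guide comparison.

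Small nucleolar and Cajal body RNAs listed inside the hosts had few reads. Of 75 such rows in the table, 21 lay within 10 of the hosts on the same strand, and 16 of these had at most 3 reads in each library. SNORA26, within DANCR, was the highest per length, at 1135 and 696.0 TPM with the SNHG26 guides and 987.6 and 660.6 TPM with the control guides. These values equal 19, 13, 15 and 12 reads on 122 bases. Differences between libraries in these snoRNA rows were not tested. The libraries were made from poly(A) RNA, and whether these reads came from free snoRNAs or from host RNA was not tested. They are therefore not taken as snoRNA levels. SNORD116-2 and SNORD116-29, in SNHG14, had 8 and 16 reads and 4 and 3 reads with the SNHG26 guides, against 6 and 9 and 6 and 11 with the control guides. SNORA73B in SNHG3 and SNORA24 in SNHG8 were the next highest, with 2 to 10 and 1 to 4 reads.

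Position matters for reading these values. By the listed coordinates 18 of the 29 hosts overlap a gene on the opposite strand and 5 overlap one on the same strand. SNHG3 lies inside RCC1, SNHG4 inside MATR3, and SNHG20 mostly inside SEC14L1, while SNHG32 overlaps HSPA1B by 2517 bases. SNHG8 and SNHG29 overlap PRSS12 and LRRC75A, with means of 0.023 and 0 TPM. Of the hosts with over 100 TPM, SNHG9 and SNHG14 were the 2 whose overlapping neighbour had a higher mean than the host. For SNHG14 this rests on day 3 of the SNHG26 arm, with 78.0 TPM against 176.1 TPM for SNRPN. In each of the other libraries SNHG14 was above SNRPN.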

How the data were processed

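Gene-level TPM values were deposited by the authors in a single table, 1 column for each library. Per the submitters' processing notes, minimap2 2.24-r1122 and GRCh38 were used; the counting tool, annotation release and filters are not given in the sources used here. The listed gene length, deposited as another value column, equals end minus start plus 1. TPM times that length took whole multiples of 1 unit per library in 3087 of 13840 genes (22.3%, tolerance 0.001 read), which gives reads for single-span genes and an upper bound for others. Reads carry no molecular identifiers, so they cover counting error only.

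Changes are on the log2(TPM + 1) scale, where those of low genes come out too small. Genes averaging 1 TPM or more (8274) were fitted with limma 3.58.1 in R 4.3.3 (eBayes with trend), adjusted by Benjamini-Hochberg over all of them with a threshold of 0.05. Guide arm, day, and the difference between days in the guide change were each fitted alone, 2 libraries against 2, so the other effects count as spread. Values per library are given for the 4 hosts named in the rule, SNHG26 and hosts with a mean of at least 20 TPM. SNHG10 and the snoRNA and neighbour values were added after they were seen or by position. The members, lists and tests were chosen with earlier results of these data known. The fit was also run on simulated reads with counting error only, so that run does not cover any further spread between libraries. Start windows came from RefSeq, GRCh38.p14. Libraries of the arms share a number only through the day, and their deviations from the arm means correlated at 0.046 over 8274 genes and at -0.379 over the 29 hosts.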

Additional observations from a re-analysis of the deposited data

How the results depend on the processing

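No host passed the threshold in the guide comparison, between the days or in the difference between the days under any of the 13 alternatives: another pseudocount (0.1 or 5), a stricter filter (5 TPM or 20 reads) or none, scaling by quantiles or by median ratios, a fit without the eBayes trend, the replicate block, and each library left out. The stricter filters left 24 and 21 hosts, and a library left alone in its group was assumed to vary like the others. At an unadjusted p under 0.05, limma gave 0 to 2 hosts for the guides, 0 to 5 for the days and 0 to 3 for the difference between the days. The replicate block (day as a term) left the median guide change at -0.036 and 0 hosts called. Leaving out each library moved that median from -0.11 to 0.082. The sign of the guide change held in 13 of 29 hosts and depended on the library left out in 16. Leaving out each library gave -0.90 to 0.33 for EPB41L4A-AS1, -0.22 to 0.084 for GAS5, -0.51 to 0.32 for SNHG1, -0.15 to 0.44 for SNHG11, -0.19 to 0.56 for SNHG12, -0.097 to 0.43 for SNHG16, -0.38 to 0.31 for SNHG19, -0.61 to 0.11 for SNHG20, -0.23 to 0.15 for SNHG21, -0.26 to 0.19 for SNHG32, -0.099 to 0.66 for SNHG33, -0.069 to 0.10 for SNHG6, -0.83 to 2.52 for SNHG7, -0.20 to 0.19 for SNHG8, -0.40 to 0.22 for SNHG9 and -0.036 to 0.15 for ZFAS1. Among hosts that kept their sign, the same range was 0.12 to 0.40 for DANCR, 0.039 to 0.41 for SNHG29, -0.36 to -0.070 for SNHG3, -0.56 to -0.092 for SNHG25, -0.99 to -0.19 for SNHG17, -1.18 to -0.097 for SNHG14, -5.03 to -1.13 for SNHG22, -0.83 to -0.17 for SNHG18, 0.084 to 1.74 for SNHG30 and -1.74 to -0.082 for SNHG4. Quantile normalization turned ZFAS1 to -0.0018 and SNHG6 to -0.042, and median ratio scaling turned SNHG6 to -0.022; the cause was not tested. With TPM times listed span in place of TPM, 8 of the 10 highest hosts stayed in that group. The read numbers of most hosts are not known, which limits what can be said of the low ones.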

Other observations

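Values chosen after they were seen follow, with no explanation. UPF3A, a nonsense-mediated decay factor, stood at 70.9 and 4.64 TPM with the SNHG26 guides and at 45.5 and 44.8 TPM with the control guides, with the low value in the same library as that of SNHG14.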
